A study of Triticum aestivum with 122 samples.

Results

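The comparison follows heads of bread wheat (Triticum aestivum) from 8 h to 24 h of continuous heat, in plants whose seed had been germinated with the solvent control. It rests on 16 of the 122 samples of the study: 4 floret and 4 rachis libraries after 8 h at 29 °C, and 4 floret and 4 rachis libraries after 24 h at 29 °C. Members were taken by their labels alone (dimethyl sulfoxide seed treatment, 29 °C, the sampling time and the tissue), so that no measured value entered the choice. All plants were of the cultivar Vida. Seeds had germinated for 48 h in the dark with dimethyl sulfoxide (DMSO), given in the labels as 1 µM, and were then grown at 22 °C under 16 h of light. At the tetrad stage of the unemerged head, pots were moved to 29 °C and stayed there, day and night. Each head was dissected into florets and rachis, which is the stem of the head to which the spikelets attach, so that a floret and a rachis library with the same plant number come from a single plant. The libraries were made from poly(A)-selected RNA.

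Further groups served to place the change. Other DMSO plants at 29 °C were sampled at 16 h (4 libraries a tissue). DMSO plants kept at 22 °C were sampled at the same hours (4 libraries a tissue and time). Plants germinated with 1 µM of the brassinosteroid 2,4-epibrassinolide (EBR) in place of DMSO were held at 29 °C for the same times. They gave 4 libraries a tissue at 8 h and at 24 h, and 3 a tissue at 16 h. EBR plants at 22 °C and 0 h (4 libraries a tissue) served for lists of genes that differ between the tissues. Within the 24 h against 8 h comparison, hours of heat, time of day and any progress in the stage of the head cannot be told apart. The 22 °C plants were sampled at the same hours without the heat, and the stage their heads had reached was not measured. Labels call the samples biological replicates. The 16 libraries come from 8 plants, each giving a floret and a rachis library, and within a tissue each library is from another plant.

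The tetrad stage is the point at which male meiosis in the anther has just given tetrads of microspores, before these are released and form pollen. It is known as a stage of cereal development at which heat harms later fertility. In plants, heat acts through heat shock transcription factors, which raise chaperone genes, and over longer exposure it also changes growth rate, hormone signalling and the circadian clock. Bread wheat is hexaploid, and its chromosomes come in groups of homoeologs from the A, B and D subgenomes. Gene IDs could not be paired with names, since a gene table of 155467 entries held 0 of them. Genes therefore appear by ID, whose start gives the chromosome, and no function is given for them. Whether known heat shock genes rose was not analysed here.

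Values are the authors' normalized counts, that is, reads per gene divided by a single factor for each library. Reads over the listed genes (M stands for 1e6 reads) numbered 14.8 to 17.4 M in floret libraries at 8 h and 15.5 to 19.0 M at 24 h. Rachis libraries had 15.2 to 17.2 M at 8 h and 13.7 to 15.9 M at 24 h. More genes were seen at the later time: 41800 to 44315 had a value above 0 in floret libraries at 8 h against 45799 to 47131 at 24 h, and 42072 to 44117 in rachis libraries at 8 h against 44773 to 45955 at 24 h. In both tissues the groups did not overlap in this number, although 3 of the 4 rachis libraries at 24 h held fewer reads than any at 8 h.

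From 8 h to 24 h of heat, most measured genes changed in either tissue. In the floret, 23683 of 38320 genes tested were called (limma, Benjamini-Hochberg adjusted p under 0.05), which is 61.8%: 13102 rose (34.2%) and 10581 fell (27.6%). In the rachis, 24172 of 38883 genes were called (62.2%), of which 13455 rose (34.6%) and 10717 fell (27.6%). Changes of at least 2-fold were more often rises. In the floret 7686 genes rose at least 2-fold (20.1% of genes tested) and 3867 fell as much (10.1%), and in the rachis 8435 rose (21.7%) and 5001 fell (12.9%). The groups did not overlap for 54.9% of floret genes and 52.5% of rachis genes. The median of all genes was 0.07 on the log2 scale in the floret and 0.12 in the rachis. The balance between rises and falls depended on the scaling: with trimmed-mean (TMM) factors the floret had 11712 rises and 12215 falls with a median of -0.03, and the rachis 12251 and 11890 with a median of 0.03. It also depended on the filter. Among genes with a mean of at least 50, the floret had 8288 rises and 8592 falls, and the rachis 8686 and 8904. In bulk tissue, a change in the number of cells of a type and a change of RNA per cell cannot be told apart.

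**Figure D1:**
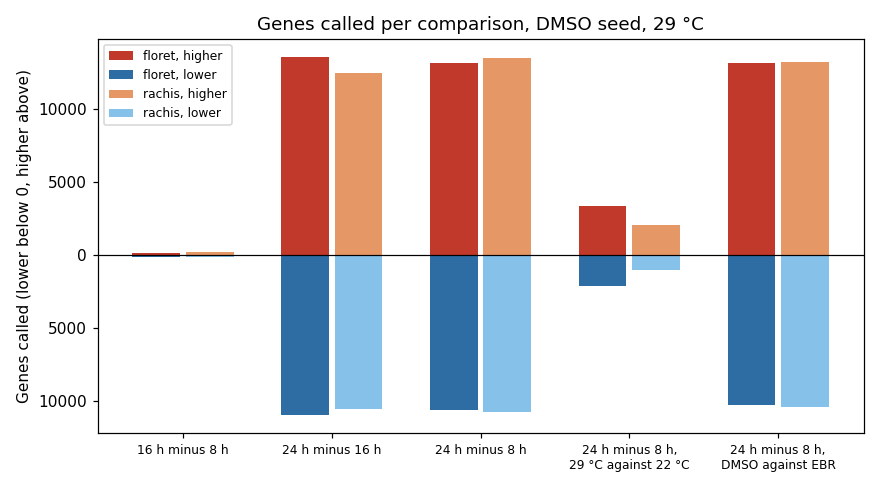
Number of genes called higher (above 0) and lower (below 0) at an adjusted p under 0.05, for floret and rachis of DMSO plants at 29 °C. The first 3 pairs of bars are the step from 8 to 16 h (243 floret and 302 rachis genes), the step from 16 to 24 h (24495 and 22997) and the whole interval (23683 and 24172); the last 2 pairs test whether the whole change differs from that at 22 °C and from that after EBR seed.

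The largest rise in the floret was that of TraesCS2D03G0947600.1, on chromosome 2D. Its floret values were 1.07, 0.962, 76.9 and 83.7 normalized counts in the 4 libraries at 8 h and 18659, 13648, 11646 and 20852 at 24 h, a log2 change of 10.27 (SE 1.38, limma adjusted p = 1.7e-08). All 4 libraries at 24 h were far above the highest at 8 h, and at 8 h replicates 3 and 4 were well above replicates 1 and 2. TraesCS2B03G1125200.1, on 2B, followed the same libraries, with 3.22, 4.81, 114 and 117 at 8 h and 22839, 17593, 15487 and 25718 at 24 h (log2 change 9.70, SE 1.36, limma adjusted p = 4.4e-08). In the rachis both genes also rose, by 6.60 and 5.94 on the log2 scale (SE 1.43 and 1.45, limma adjusted p = 1.0e-04 and 4.6e-04).

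Among the named genes, the largest rises in the rachis were those of a gene on 4D and another on 4A. TraesCS4D03G0606000.1 had 0, 52.0, 38.3 and 68.1 normalized counts at 8 h and 5096, 10713, 8878 and 10153 at 24 h (log2 change 8.75, SE 1.32, limma adjusted p = 2.3e-07). TraesCS4A03G0136300.1 had 0, 12.99, 12.4 and 27.1 at 8 h and 3474, 3376, 3708 and 2623 at 24 h (8.58, SE 1.54, limma adjusted p = 5.6e-06). In both, rachis replicate 1 at 8 h was the lowest, and the times did not overlap.

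The steepest falls ended near 0. TraesCS4D03G0747100.1, on 4D, had 161, 46.2, 182 and 19.5 normalized counts in the floret at 8 h and 2.56, 3.15, 0 and 0 at 24 h (log2 change -5.22, SE 0.721, limma adjusted p = 3.0e-08). TraesCS3A03G0233600.1, on 3A, had 109, 106, 142 and 48.4 at 8 h and 7.69, 2.10, 2.04 and 0 at 24 h (-4.99, SE 0.694, limma adjusted p = 3.5e-08). In the rachis TraesCS2B03G0234000.1, on 2B, went from 925, 266, 858 and 300 to 3.39, 3.13, 2.40 and 5.61 (-6.81, SE 0.967, limma adjusted p = 6.6e-08). TraesCS4A03G0978200.1, on 4A, went from 238, 80.5, 178 and 374 to 2.26, 0, 0 and 2.24 (-6.72, SE 1.09, limma adjusted p = 8.4e-07). Each of these 4 genes had lost nearly all of its signal in every library at 24 h.

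The called genes of highest mean changed little. TraesCS4A03G0460700.1, the called gene of highest mean among those that rose, had 38541, 38404, 40861 and 38219 normalized counts in the floret at 8 h and 45646, 41006, 50159 and 48613 at 24 h (log2 change 0.25, SE 0.0836, limma adjusted p = 0.0099). In the rachis it rose by 0.40 (SE 0.115, limma adjusted p = 0.0028). Its call in the floret was lost with TMM factors and with edgeR, and its calls in both tissues were lost with the head axis score (a measure of how heads of a group differ) as a covariate (adjusted p = 0.21 in the floret and 0.185 in the rachis). The counterpart among the falls was TraesCS5B03G1031900.1. Its rachis values were 50022, 41241, 50084 and 41684 at 8 h and 37175, 33557, 33331 and 29119 at 24 h (-0.46, SE 0.0985, limma adjusted p = 9.1e-05), and its floret change was -0.21 (SE 0.0816, limma adjusted p = 0.025). That floret call was also lost when replicate 4 at 24 h, or replicate 1 or 3 at 8 h, was left out, and when the compared groups alone were fitted. With the head axis score as a covariate its floret change turned to 0.060 (adjusted p = 0.69), and its rachis change was -0.21 and no longer called (adjusted p = 0.164).

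Nearly all of the change fell in the last 8 h. Between 8 and 16 h of heat, 243 floret genes were called (0.634% of those tested), 142 higher (0.371%) and 101 lower (0.264%). In the rachis 302 genes were called (0.777%), 191 higher (0.491%) and 111 lower (0.285%). At an unadjusted p under 0.05 there were 3130 and 3305. Between 16 and 24 h the floret had 24495 calls (63.9%), 13556 higher (35.4%) and 10939 lower (28.5%). The rachis had 22997 (59.1%), 12452 higher (32%) and 10545 lower (27.1%). The median size of the change over all genes was 0.15 on the log2 scale in the first step and 0.63 in the second step for florets, and 0.19 and 0.68 for rachis. The steps share the 16 h libraries, and each shares an end with the whole interval. Counts of the first step depended on single libraries: without floret replicate 1, 2 or 3 at 16 h they were 157, 148 and 130, and without floret replicate 3 at 8 h 146. In the rachis they were 194 and 187 without replicate 1 or 2 at 16 h, and 200 and 497 without replicate 1 or 4 at 8 h.

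Named genes of the first step came in 2 kinds. The first kind was called in the first step in the same direction in all 3 arms. TraesCS5A03G0769500.1, on 5A, had 99.3, 93.5, 69.4 and 96.1 normalized counts in the rachis at 8 h of heat, 781, 773, 771 and 748 at 16 h, and 169, 129, 132 and 128 at 24 h (16 h minus 8 h: 3.10, SE 0.136, limma adjusted p = 1.3e-22). At 22 °C its rachis values ranged over 155 to 227 (8 h), 872 to 989 (16 h) and 158 to 214 (24 h), with a first step of 2.21 (SE 0.136, limma adjusted p = 8.0e-17). After EBR seed at 29 °C the first step was 3.50 (SE 0.147, limma adjusted p = 1.8e-23). TraesCS2D03G1299900.1, on 2D, rose likewise, by 2.97 on the log2 scale in the rachis under heat (SE 0.239, limma adjusted p = 4.0e-13), by 3.15 at 22 °C (SE 0.239, limma adjusted p = 1.0e-13) and by 3.14 after EBR (SE 0.258, limma adjusted p = 6.7e-13). In the opposite direction, TraesCS3A03G1243100.1, on 3A, fell in the floret from 217, 251, 182 and 202 to 24.2, 13.7, 35.5 and 26.6 and stood at 366, 401, 407 and 540.0 at 24 h. Its first step was -3.10 under heat (SE 0.255, limma adjusted p = 6.1e-13), -2.73 at 22 °C (SE 0.255, limma adjusted p = 7.8e-11) and -3.87 after EBR (SE 0.275, limma adjusted p = 2.6e-15).

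The second kind was not called in the first step at 22 °C. TraesCS4A03G0740400.1, on 4A, had 179, 441, 175 and 440.0 normalized counts in the floret at 8 h. Its values dropped to 39.1, 36.8, 27.1 and 21.1 at 16 h and reached 2009, 2634, 2848 and 3052 at 24 h. Its first step was -3.17 in the floret (SE 0.437, limma adjusted p = 2.7e-06) and -3.63 in the rachis (SE 0.495, limma adjusted p = 1.8e-06). At 22 °C it was -0.78 (SE 0.437, limma adjusted p = 0.25) and after EBR -3.45 (SE 0.472, limma adjusted p = 1.3e-06) in the floret; whether the first step differs between these arms was not tested. TraesCS4A03G0646200.1 went the same way in the rachis, where the range of normalized counts was 159.6 to 378 after 8 h, 14.6 to 27.6 after 16 h and 1837 to 2445 after 24 h. TraesCS1A03G0001400.1 and TraesCS1B03G0225900.1 were the largest rises of the first step in the floret (2.98, SE 0.615, and 2.91, SE 0.521), with first steps of -0.13 and -0.12 at 22 °C (limma adjusted p = 0.92 for both). The former had 231, 18.3, 16.7 and 140 at 8 h, 416, 327, 909 and 346 at 16 h and 11.96, 12.6, 13.3 and 13.7 at 24 h. At 8 h its libraries thus fell into a high and a low pair, and its first-step call (limma adjusted p = 0.0048) was lost without replicate 2 or 3 at 8 h or replicate 3 at 16 h. Its first step was -0.33 in EBR florets (limma adjusted p = 0.96) and -0.15 in the rachis under heat (limma adjusted p = 0.97). It lies in a stretch of 9 neighbouring genes on 1A, called lower in the floret from 8 to 24 h, with a median first step of 2.74 under heat. From 8 to 24 h the floret medians of this stretch were -1.63 under heat, -4.18 at 22 °C and 4.01 after EBR. Of its genes, 0 were called as falling more under heat than at 22 °C.

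Over all genes of the first step, the direction at 22 °C and after EBR was mostly the same, while the size was in most sets much smaller at 22 °C. The 191 genes that rose in the rachis had a median of 1.11 on the log2 scale under heat, 0.93 at 22 °C and 0.93 after EBR, and 182 of 191 were above 0 in each of these other arms. Of the 111 that fell, 99 were below 0 at 22 °C and 91 after EBR, with medians of -0.997 under heat, -0.38 at 22 °C and -0.70 after EBR. In the floret 97 of 142 risers and 79 of 101 fallers kept their sign at 22 °C, and 115 and 98 did after EBR. Floret risers had medians of 1.09 under heat, 0.26 at 22 °C and 0.54 after EBR, and floret fallers of -0.99, -0.20 and -0.88. Chosen by their change under heat, these genes were bound to show part of this gap. Over all genes tested, 51.0% of floret and 53.8% of rachis first-step changes were above 0 at 22 °C. Both tissues called 108 genes in the first step in the same direction, 59 higher and 49 lower, and 0 in opposite directions.

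The heated heads were not alone in changing between 8 and 24 h. Of the 13102 genes that rose in heated florets, 12086 (92.2%) had a change above 0 at 22 °C, and 9781 of the 10581 that fell (92.4%) had one below 0. In the rachis these were 12652 of 13455 (94.0%) and 10071 of 10717 (94.0%). Over all genes tested, 81.9% of floret and 83.6% of rachis genes had the same sign at both temperatures. The size was smaller at 22 °C: floret risers had a median of 1.25 on the log2 scale at 29 °C and 0.54 at 22 °C, and floret fallers -0.77 and -0.37. Rachis risers had medians of 1.38 and 0.74, and rachis fallers -0.94 and -0.54. Since the genes were chosen by their change at 29 °C, part of this gap in size follows from the choice. The arms share no library, and across all genes their log2 changes correlated (Pearson) by 0.767 for florets and by 0.804 for rachis. Genes are not independent replicates, and this is a description.

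The test of the difference itself, 29 °C against 22 °C in the change from 8 to 24 h, called 5445 floret genes (14.2% of those tested) and 3089 rachis genes (7.94%). The change was the more positive at 29 °C for 3335 floret genes (8.7%) and 2066 rachis genes (5.31%), and the more negative for 2110 (5.51%) and 1023 (2.63%). The counts and the split were unsteady. With the compared groups alone fitted, the counts were 2977 and 354. Without replicate number 2 of every group they were 1049 and 530. By edgeR, 1688 floret genes were the more positive and 3057 the more negative, and for the rachis these were 1423 and 1772. TMM scaling turned the floret split to 2737 against 3016. At 22 °C and 24 h, replicate 2 stood apart from the other libraries in both tissues. Without it the floret count was 2770 and the rachis count 1683. Without heated replicate 3 or 4 at 24 h the floret count was 3553 or 3574. In the rachis it was 1749 without heated replicate 4 at 24 h and 5909 without replicate 1 of the 22 °C, 24 h group.

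The genes with the largest such difference were close to absent outside the heated 24 h heads. TraesCS2B03G0929700.1, on 2B, had 0, 0, 4.63 and 1.86 normalized counts in the floret at 8 h of heat and 1009, 714, 582 and 1273 at 24 h. At 22 °C its floret values were 0, 1.87, 0 and 0 at 24 h, and after EBR at 29 °C 2.63, 0.775, 0 and 0. The difference between the changes was 8.84 on the log2 scale (SE 0.740, limma adjusted p = 5.6e-13). TraesCS1D03G0574100.1, on 1D, went in the floret from 1.07, 1.92, 7.41 and 9.30 to 641, 1564, 1746 and 2945 under heat and had 1.87 to 4.99 at 22 °C and 24 h (difference 8.57, SE 0.966, limma adjusted p = 4.9e-09). In the rachis TraesCS2B03G1068300.1 reached 82.4, 235, 506 and 588 at 24 h of heat against 0, 5.16, 0 and 0 at 22 °C (difference 8.21, SE 1.04, limma adjusted p = 2.1e-07). TraesCS1D03G0264600.1 reached 88.1, 273, 502 and 457 against 0, 0, 0 and 1.29 (7.59, SE 0.681, limma adjusted p = 5.6e-11). In all 4 genes replicate 1 or replicate 3 of the heated 24 h group was the lowest of its group.

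Where the change was the more negative at 29 °C, the largest differences were smaller in size. In the floret the largest was that of TraesCS3D03G0939700.1 (-3.05, SE 1.05, limma adjusted p = 0.042). Its call was lost in 16 of 31 alternative fits. TraesCS1A03G0434900.1, on 1A, had 255, 651, 203 and 579 normalized counts in the floret at 8 h and 106, 32.5, 33.6 and 34.8 at 24 h of heat, against 184 to 286 and 156 to 415 at 22 °C (difference -3.04, SE 0.794, limma adjusted p = 0.0073). This call was lost without replicate number 2 or 4 of every group. In the rachis the gene fell at 22 °C as well (-1.96, SE 0.800), and the difference of -0.88 was not called (limma adjusted p = 0.69). TraesCS1A03G0676700.1, also on 1A, went in the rachis from 234, 261, 310 and 332 to 123, 30.3, 26.4 and 20.2 under heat, while its values at 22 °C were 66.6 to 272 and 120 to 329 (difference -3.50, SE 0.589, limma adjusted p = 5.9e-05). In the floret the same gene rose under heat (0.93, SE 0.345, limma adjusted p = 0.018).

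A search over every library of a tissue gave few genes seen in the heated 24 h heads alone. With at least 50 normalized counts in all 4 of those libraries and at most 5 in each other library, there were 13 genes in the floret (57 other libraries) and 2 in the rachis (56 other libraries), with 0 genes in common. Their values at 24 h were 56.1 to 1273 in the floret and 75.6 to 425 in the rachis. These thresholds were set with the values known, and the counts are a description. TraesCS2B03G0929700.1 was the most abundant of the floret genes, with a mean of 894.5.

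A wider group of genes went from near silence to clear expression. With a mean of at most 1 normalized count at 8 h and at least 50 at 24 h, 208 genes were switched on in the floret and 157 in the rachis. Of these, 32 were in both lists, 15.4% of the floret list and 20.4% of the rachis list. The reverse, from at least 50 to at most 1, was met by 0 genes in the floret and by 2 in the rachis, TraesCS3D03G0939700.1 and TraesCS4D03G0747100.1. The switched-on genes had 24 h means of 50.1 to 374 (floret list) and 50.1 to 397 (rachis list). They lay on all chromosomes covered, with between 9 and 28 a chromosome in the floret and between 6 and 17 in the rachis.

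How many of these genes reached 10 normalized counts in a library shows where else they were used. In the floret list the heated 24 h libraries had 202, 208, 208 and 205 genes at this level, and the 16 h libraries had 0 in each. At 22 °C and 24 h the libraries had 128, 0, 69 and 44. After EBR at 29 °C they had 1, 6, 45 and 0 at 8 h, 0, 2 and 116 at 16 h, and at most 1 at 24 h. For the rachis list the heated 24 h libraries had 153, 151, 144 and 155, those at 22 °C and 24 h had 115, 1, 57 and 55, and those after EBR at 16 h had 2, 0 and 76. Single plants outside the heated 24 h group thus carried a large share of the list, in both tissues of the plant. At 22 °C and 24 h, 32 of the 208 floret genes and 15 of the 157 rachis genes reached a group mean of 50.

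**Figure D2:**
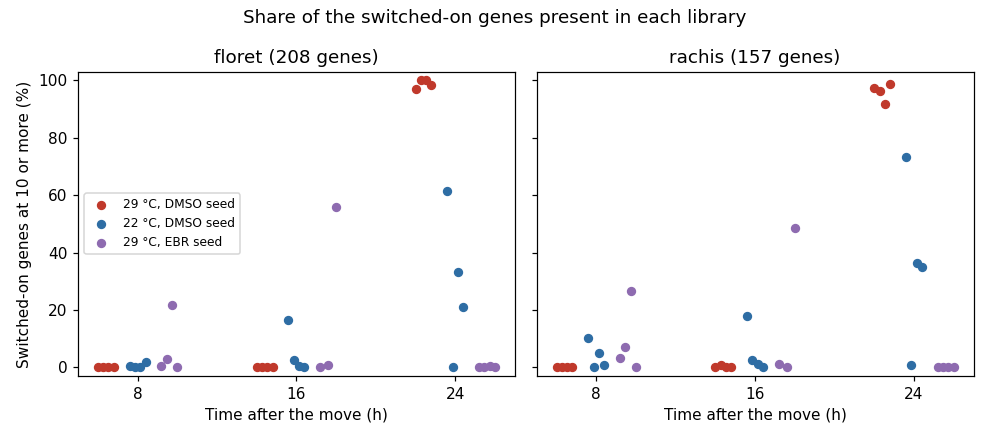
Share of the genes switched on between 8 and 24 h of heat that have at least 10 normalized counts, in each library at 8, 16 and 24 h, for 208 floret genes and 157 rachis genes. The heated DMSO libraries have 0 or 1 of these genes at 8 and 16 h and nearly all at 24 h; the list was chosen by the heated 8 h and 24 h values, so those groups differ by choice; among the others, 3 of 4 libraries at 22 °C and 24 h hold 44 to 128 floret genes and replicate 3 after EBR at 16 h holds 116.

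Heads of the same group differed along a main axis, and the 24 h heated heads stood at or near its end. The axis is the first one of the variation within groups over all groups of a tissue, and it held 26.2% of that variation in the floret and 28.0% in the rachis. Scores are in SD of all libraries, and their sign was set so that a higher score goes with more genes above 0. Floret scores were -1.37, 0.11, -1.002 and 0.70 at 8 h of heat, -0.06, -0.78, -0.31 and -1.04 at 16 h, and 2.20, 2.22, 2.28 and 2.28 at 24 h. Rachis scores were -1.41, -0.40, -1.26 and 0.54 at 8 h, -0.31, -0.41, -0.01 and -0.90 at 16 h, and 1.88, 2.29, 2.18 and 2.28 at 24 h. The other 57 floret libraries of the study lay between -1.51 and 1.79, below all 4 heated 24 h libraries. The other 56 rachis libraries lay between -1.79 and 2.14, so that the groups overlapped there. The highest of them, replicate 1 at 22 °C and 24 h, was above heated replicate 1 at 24 h (1.88).

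At 22 °C the scores at 24 h were 1.67, -0.68, 1.56 and 1.32 for florets and 2.14, -0.90, 1.36 and 1.69 for rachis, with replicate 2 far below the others. The difference between 24 and 8 h was 2.64 in heated DMSO florets, 1.86 at 22 °C and -1.26 after EBR. In the rachis it was 2.79, 1.99 and -1.14. In the heated DMSO heads of both tissues, and in the opposite direction in heated EBR florets, the times did not overlap, which gave an exact two-sided permutation p of 0.0286 in each of these 3 tests, the smallest that 4 against 4 libraries allow. Adjusted over the 6 tests of this kind it was 0.0571, so that no difference in score passed the correction.

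**Figure D3:**
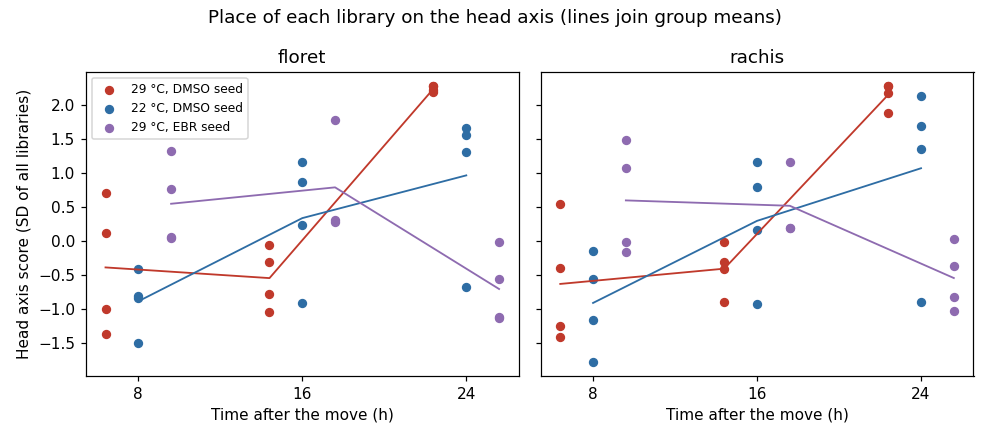
Score of each library on the main axis of variation between heads of the same group, in SD of all libraries of the tissue, at 8, 16 and 24 h; points are libraries and lines join group means. Heated DMSO heads are at or below 0.70 through 16 h and at 1.88 or above at 24 h, while heated EBR heads are lower at 24 h than at 8 h on average.

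The axis moves with the main comparison. With the score of the same plant's other tissue as a covariate, there were 9231 floret calls in place of 23683, and 8574 rachis calls in place of 24172. Of the genes that rose, 5115 in the floret (39.0%) and 3858 in the rachis (28.7%) were called in the same direction in that fit, and of those that fell, 3278 (31.0%) and 3888 (36.3%) were. Over all genes, that fit called 5331 of 38279 floret and 4118 of 38866 rachis genes higher, and 3900 and 4456 lower. Of the genes that rose, 11992 and 11534 kept their sign, and 53 and 39 were called opposite. Of those that fell, 9955 and 9962 kept it, and 2 and 4 were called opposite. What the axis stands for was not tested, and the score separates the compared groups, so that its part and that of heat in the remaining genes cannot be told apart. In that fit TraesCS2D03G0947600.1 and TraesCS2B03G1125200.1 were still called, with log2 changes of 8.17 and 7.41 in the floret. The 4 strongly falling genes above were also called, but with much smaller changes for most: -1.52 for TraesCS4D03G0747100.1 (adjusted p = 0.038), -3.01 for TraesCS3A03G0233600.1 (0.0055), -1.97 for TraesCS2B03G0234000.1 (0.048) and -3.30 for TraesCS4A03G0978200.1 (0.048). The calls of TraesCS4D03G0606000.1 and TraesCS4A03G0136300.1 in the rachis were lost (adjusted p = 0.103 and 0.156 with the covariate).

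Heads from EBR seed did not take the same course under the same heat. Floret genes that rose in DMSO heads had a median of -0.33 on the log2 scale from 8 to 24 h in EBR heads, and 15.4% of them were above 0. Floret genes that fell had a median of 0.22, and 15.1% were below 0. The rachis medians were -0.36 and 0.26, with 14.9% and 13.4% of the same sign. Over all genes tested, 24.3% of floret and 23.5% of rachis changes had the same sign in the 2 seed treatments. The test of the difference called 23352 floret genes (60.9%), 13121 more positive (34.2%) and 10231 more negative (26.7%) after DMSO. It called 23562 rachis genes (60.6%), 13184 more positive (33.9%) and 10378 more negative (26.7%). With the head axis score as a covariate these counts were 5597 and 3157. TMM scaling moved the median difference over all floret genes from 0.11 to -0.0048 and gave 11821 more positive and 11700 more negative.

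**Figure D4:**
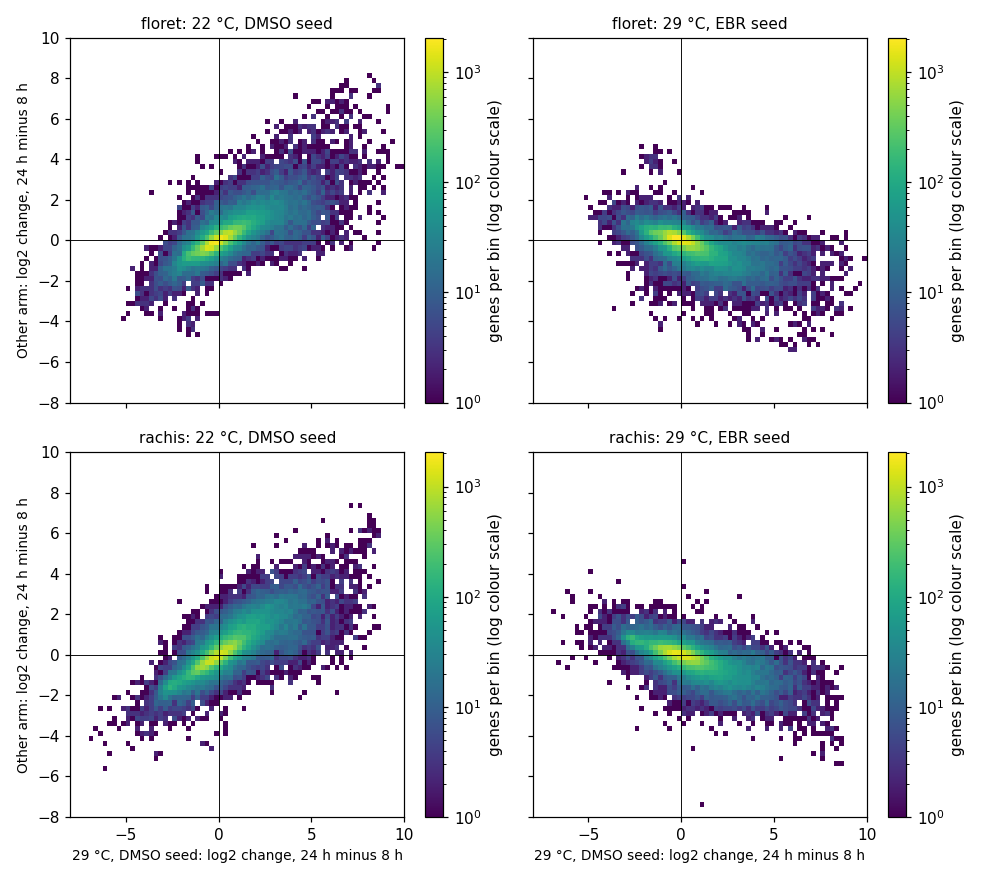
Log2 change from 8 to 24 h of every gene tested in heated DMSO heads (x axis) against the change of the same gene at 22 °C (left) and in heated EBR heads (right), floret above and rachis below; colour gives the number of genes in a bin on a log scale. Points at left run from lower left to upper right with Pearson correlations of 0.767 and 0.804, points at right from upper left to lower right with -0.615 and -0.688; the arms share no library, and each point is a gene, not a replicate.

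Single genes show the opposite course. TraesCS4A03G0099900.1, on 4A, had 3.07, 69.3, 71.5 and 115 normalized counts in the rachis of DMSO heads at 8 h and 8956, 17537, 15619 and 17550 at 24 h. In EBR heads it had 62.8, 459, 2618 and 31.3 at 8 h and 6.35, 4.66, 1.95 and 8.22 at 24 h (difference 13.78, SE 1.73, limma adjusted p = 1.6e-08). TraesCS4D03G0673200.1, on 4D, did likewise in the floret, with 1.07 to 58.6 and 4573 to 11623 after DMSO and 1.001 to 255 and 0 to 3.79 after EBR (difference 12.49, SE 1.90, limma adjusted p = 3.5e-07). In both genes EBR replicate 3 was the highest at 8 h. With the head axis score as a covariate these differences were 5.63 (adjusted p = 0.022) and 5.79 (adjusted p = 0.058), so that the latter call was lost. TraesCS1A03G0001400.1, on 1A, went down to 11.96 to 13.7 in DMSO florets at 24 h (log2 change -2.06, SE 0.615, limma adjusted p = 0.0035). Its DMSO floret libraries at 8 h were a high and a low pair, as given above. In EBR florets it went up from 7.005 to 18.9 at 8 h to 286 to 449 at 24 h (difference -6.69, SE 0.869, limma adjusted p = 1.8e-08). Its floret change at 22 °C was -4.46 (SE 0.615), and its change in the heated DMSO rachis was -0.03 (SE 0.701).

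Floret and rachis of the same heads changed largely together. Of 37058 genes tested in both, 18008 were called in both tissues, and 17741 of them in the same direction. These 17741 are 77.5% of the 22890 genes called in the floret and 76.9% of the 23083 called in the rachis. In both tissues 9535 rose and 8206 fell, while 165 rose in the floret and fell in the rachis and 102 did the reverse. Since the libraries come from the same plants, the tissues are not independent. The test of the difference between the tissues called 4724 of 40613 genes (11.6%), 3005 with the more positive change in the floret (7.4%) and 1719 with the more positive change in the rachis (4.23%). With the plant as a block, which uses that both tissues share a head, it called 7935. Without rachis replicate 2 or 4 at 24 h the count without a block was 3126 or 2886, and with the head axis score as a covariate 578.

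Genes that differed between the tissues often changed in both. Of 2720 tested in each tissue and more positive in the floret, 1051 fell in both and 206 rose in both. Of 1375 more positive in the rachis, 485 rose in both and 11 fell in both. Among genes that differed, some appeared almost only in a single tissue of the heated heads. TraesCS4D03G0566400.1, on 4D, reached 92.6, 171, 356 and 412 normalized counts in the rachis at 24 h and 2.56, 5.24, 13.3 and 7.38 in the floret (difference in log2 change -4.83, SE 0.745, limma adjusted p = 1.5e-06). TraesCS3D03G0905500.1, on 3D, reached 68.9, 558, 385 and 737 in the rachis and 8.54, 11.5, 12.2 and 8.44 in the floret (-4.30, SE 1.06, limma adjusted p = 0.0035). In the other direction TraesCS1D03G0574100.1 changed by 8.30 in the floret and 3.16 in the rachis (difference 5.14, SE 1.01, limma adjusted p = 1.7e-04). TraesCS4D03G0002700.1 had 1554, 486, 443 and 261 in florets at 24 h, against 31.6, 2.09, 1.199 and 10.1 in rachis libraries (5.51, SE 1.68, limma adjusted p = 0.020), and its call was lost without floret replicate 1 or rachis replicate 2 or 3 at 24 h. It was also lost without replicate number 2 or 4, with a pseudocount of 0.5, with edgeR and with the head axis score as a covariate. That covariate also ended the calls of TraesCS3D03G0905500.1 (adjusted p = 0.34) and TraesCS1D03G0574100.1 (adjusted p = 0.12), and edgeR ended that of TraesCS4D03G0566400.1 (adjusted p = 0.15).

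The tissue labels were checked with lists of genes higher in floret or in rachis, at least 2-fold, since no markers by name could be used. The source first planned, DMSO heads at 22 °C and 0 h, gave 0 floret-high genes and 1 rachis-high gene. The lists were therefore taken from EBR heads at 22 °C and 0 h. The score of a library is the mean level of the 792 floret-high genes minus that of the 1798 rachis-high genes, on the log2 scale. In 3 plants of other groups the labels ran against the score, and none of these is in the compared groups. Without them the counts were 24271 in the floret and 24371 in the rachis. Within the heated DMSO heads the score fell from 0.91, 0.27, 0.47 and 0.70 at 8 h to -0.30, -0.50, -0.77 and -0.76 at 24 h in the floret, and from -1.14, -1.22, -1.53 and -2.69 to -2.66, -3.84, -2.81 and -3.28 in the rachis. All 24 h floret libraries were still above all rachis libraries of the comparison.

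The score thus moved toward the rachis-high side in both tissues. Of the 1661 rachis-high genes tested in the floret, 681 rose (41.0%, against 34.2% of all genes) and 174 fell (10.48%, against 27.6%), with a median of 0.74 on the log2 scale against 0.07 for all genes. Of 1794 in the rachis, 978 rose (54.5%, against 34.6%) and 194 fell (10.8%, against 27.6%), with a median of 1.16 against 0.12. Of the 775 floret-high genes tested in the floret, 100 rose (12.9%) and 282 fell (36.4%), with a median of -0.53. Of 694 in the rachis, 67 rose (9.65%) and 188 fell (27.1%), with a median of -0.54, so that the share of falls there was near that of all genes. The part of tissue taken at dissection in these changes was not tested.

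Calls were spread evenly over the genome as far as it was covered (chromosomes 1 to 5, with 5D in part). In the floret 33.8% of A, 34.3% of B and 34.5% of D genes rose and 27.8%, 27.0% and 28.0% fell. Single chromosomes ranged from 31.7% on 1A to 36.5% on 2A for rises. Higher expressed genes were called more often: 28.1% of floret genes with a mean under 50 rose, 35.1% of those from 50 to 500 and 42.7% of those above 500, and 18.2%, 30.6% and 37.1% fell.

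Neighbouring genes changed together in places. Runs of at least 3 neighbouring measured genes called in the same direction numbered 1177 for rises and 668 for falls in the floret. The rachis had 1241 and 668. With 61.8% and 62.2% of genes called, neighbours often share a call, and how many runs this alone gives was not computed. The strongest run was on 2A, with 13 genes from TraesCS2A03G0122000.1 to TraesCS2A03G0124500.1, all called higher in both tissues. It begins 7.71% of the way along the order of listed genes of the chromosome. Summed over its genes, the floret held 23.6, 72.2, 107 and 124 normalized counts at 8 h of heat, 88.3, 33.4, 16.7 and 7.04 at 16 h, and 9058, 14349, 22275 and 21824 at 24 h. The rachis held 4.10, 126, 119 and 215 at 8 h and 19308, 21588, 27773 and 22452 at 24 h. The median log2 change of its genes was 7.59 for florets and 8.06 for rachis.

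Chromosomes 2B and 2D carried a run of the same kind at nearly the same place in their gene order (8.17% and 7.76% along in the rachis). The 6 genes of 2B, from TraesCS2B03G0167200.1 to TraesCS2B03G0168700.1, had a median of 7.23 in the rachis, and the 5 of 2D, from TraesCS2D03G0118000.1 to TraesCS2D03G0119300.1, a median of 8.05. At 22 °C the medians of the 3 runs were 6.15, 4.34 and 5.25, and after EBR -3.75, -3.14 and -3.75. The test of 29 °C against 22 °C called 0 genes of these 3 rachis runs as rising more under heat. In the floret it called 8 of the 13 genes on 2A, 3 of the 6 on 2B and 5 of 6 in the 2D run there. At 22 °C and 24 h the summed rachis values of the 2A run were 18063, 72.2, 14450 and 8958, so that replicate 2 was as low as at 8 h. In EBR heads at 29 °C, replicate 3 had 6203 at 8 h and 11043 at 16 h, against at most 891 in the other replicates of those groups, and all 4 EBR libraries at 24 h were at or below 40.2.

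Runs of falling genes lay toward the other end of the same chromosomes, 90.8%, 90.6% and 89.7% along the order of 2A, 2B and 2D, with 5, 9 and 10 genes in the rachis. Their median log2 changes in the rachis were -4.36, -3.87 and -3.33. The summed rachis values of the 2D run were 3436, 1703, 3188 and 2598 at 8 h of heat, 2866, 4205, 3292 and 4013 at 16 h, and 142, 232, 206 and 324 at 24 h. At 22 °C and 24 h they were 245, 3468, 538 and 943, again with replicate 2 apart, and in EBR heads at 24 h 2311, 3779, 3618 and 2609. These runs were picked after their values were known, as the strongest of each direction on the group 2 chromosomes, and are given without a test. Other chromosomes also held strong runs, though none as strong as the rising run on 2A. On 4A, 8 genes from TraesCS4A03G0978200.1 to TraesCS4A03G0979000.1 fell in the rachis with a median of -4.58, and had medians of -2.91 at 22 °C and -0.04 after EBR, where 5 of the 8 had the same sign as under heat. On 1A, 7 genes from TraesCS1A03G0889900.1 to TraesCS1A03G0891600.1 rose in the rachis with a median of 5.97, against 2.24 at 22 °C and -1.19 after EBR. Near-identical copies could share reads, and the labels do not say how reads with several matches were counted, so single members are uncertain. Whether members of the 3 chromosomes are homoeologs was not tested.

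**Figure D5:**
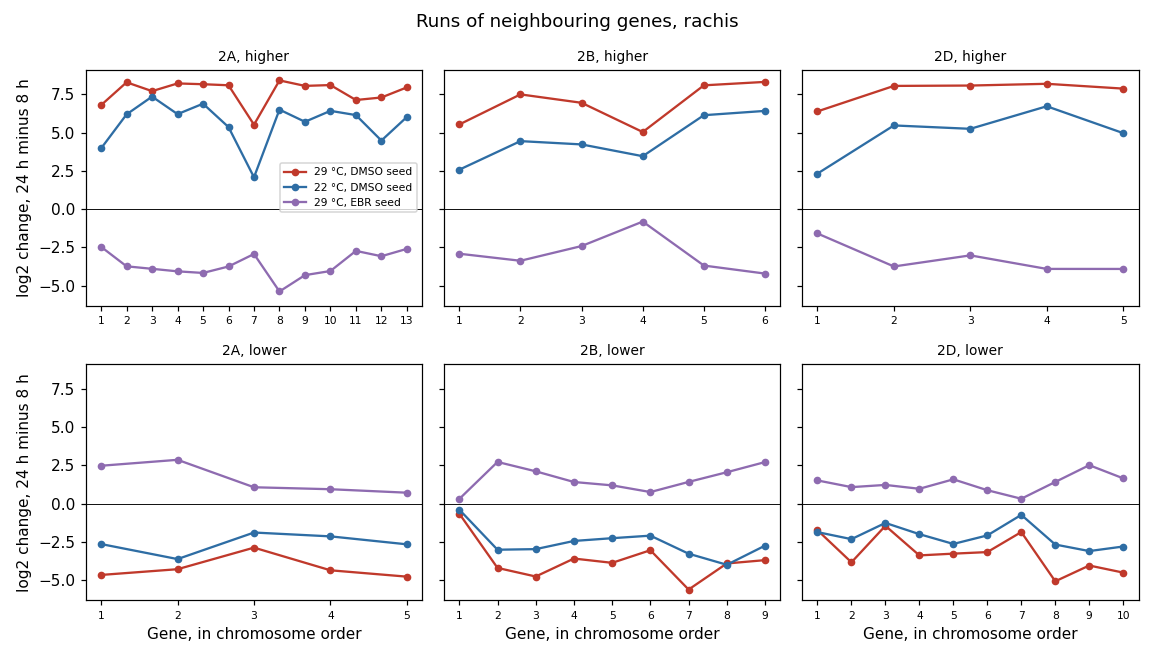
Log2 change from 8 to 24 h in the rachis for each gene of the strongest rising and falling runs on chromosomes 2A, 2B and 2D, in the order of their gene numbers, for heated DMSO heads, DMSO heads at 22 °C and heated EBR heads. Rising runs have medians of 8.06, 7.23 and 8.05 under heat and 6.15, 4.34 and 5.25 at 22 °C, and the changes after EBR have the opposite sign.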

How the data were processed

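RNA of 122 samples was sequenced, and 121 have a column in the table used here. The authors deposited normalized counts, a signal per gene and library. Tools listed in the submitters' processing notes are STAR, featureCounts, DESeq2, Trimmomatic 0.36, FastQC and MultiQC; no build is named there or in the labels. Dividing by a single factor gave whole reads within 0.01 for 100% of the values in each library (5 libraries had a factor near 1). Of 55578 entries 1 was incomplete, 55577 entries of 53798 gene IDs were used, and chromosomes 6 and 7 were not analysed. Whether counting used strand is not given.

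A pseudocount of 1 was added to the normalized counts, log2 was taken, and limma 3.58.1 (R 4.3.3) was fitted: a mean per group, all groups of a tissue sharing a trended spread, genes with at least 10 in at least 3 libraries, two-sided tests, Benjamini-Hochberg adjustment over all genes tested. Fold changes of low genes are understated by the pseudocount. The tissue test used 1 fit of both tissues (40613 genes). Alternatives were pseudocounts of 0.5 and 5, other filters, TMM factors, fitting the compared groups alone, recovered reads in edgeR 4.0.16 (quasi-likelihood), the head axis score of the plant's other tissue as a covariate, a replicate block and left-out libraries. The fitting code was tested on simulated data with known changes. Figures used Python 3.11.15. Floret and rachis libraries of a plant come from a single head by their library names. Their deviations from the group means correlated by 0.017 to 0.607 in 8 plants. The reported tissue test did not use this pairing, and the plant was a block only in an alternative fit. The chi-square per gene of 24 replicate pairs was 3.85 or more, above sampling noise in each.

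Genes named are, for each comparison, the 2 of largest change in each direction with a call, a mean that reaches 50 and no overlap between the heated groups, plus for the main comparison the called gene of highest mean in each direction. A part of those the rule gives is printed. The members, lists and rules were chosen with earlier results of these data known.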

Additional observations from a re-analysis of the deposited data

Results flagged for a closer look

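In groups of 4 libraries, a library is listed here where its gap to the nearest other value, divided by the range of the group, passed Dixon's critical value for 4 samples. This held for 17 of 147 groups checked, and chance flags about 1 in 20. In the floret at 16 h of heat these were replicate 3 of TraesCS1A03G0001400.1 with 909 normalized counts, replicate 3 of TraesCS1B03G0225900.1 with 565, replicate 4 of TraesCS3A03G0233600.1 with 170.5 and replicate 3 of TraesCS4D03G0002700.1 with 2.09. At 8 h in the floret they were replicate 3 of TraesCS4A03G0460700.1 with 40861 and replicate 3 of TraesCS4D03G0566400.1 with 1.85. At 24 h in the floret it was replicate 1 of TraesCS1A03G0434900.1 with 106.

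In the rachis, replicate 1 at 24 h stood apart for TraesCS1A03G0676700.1 with 123 normalized counts and for TraesCS5A03G0769500.1 with 169. At 16 h, replicate 3 stood apart for TraesCS2A03G0123800.1 with 6.65 and for TraesCS4D03G0606000.1 with 12.5. At the same time replicate 4 did so for TraesCS4A03G0136300.1 with 8.55, TraesCS4D03G0002700.1 with 0.950, TraesCS4D03G0566400.1 with 1.90 and TraesCS5B03G1031900.1 with 42539. At 8 h replicate 4 did so for TraesCS4D03G0002700.1 with 0.933. On the head axis, floret replicate 2 of the 22 °C, 24 h group had a score of -0.68.

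Changes from 8 to 24 h that differed between groups by a test of the difference itself numbered 5445 floret and 3089 rachis genes between 29 °C and 22 °C, 23352 and 23562 between the seed treatments, and 4724 between the tissues.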

How the results depend on the processing

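Of 285 counts of calls under the alternatives, 240 stayed within 1.5 times the reported count and 45 did not. With the head axis score as a covariate the counts were 9231 (floret) and 8574 (rachis) for 24 h against 8 h, 815 for the first step in the rachis, 11865 and 7912 for the second step, 5597 and 3157 for the difference between seed treatments, and 578 for that between tissues. With only the compared groups fitted they were 97 and 166 for the first step and 2977 and 354 for the difference between temperatures. With the plant as a replicate block the difference between tissues gave 7935. With the replicate number as a replicate block the counts were 23678 and 24189 for 24 h against 8 h, 232 and 316 for the first step, 24519 and 23031 for the second, 5348 and 3073 for the temperatures and 23359 and 23577 for the seed treatments; none moved by over 1.5 times, and same-numbered libraries correlated by -0.02 to 0.12, so they share only a number. Leaving out libraries gave 21472 to 23773 (floret) and 21957 to 24830 (rachis) for 24 h against 8 h, 95 to 315 and 134 to 679 for the first step, 20977 to 23817 and 19229 to 22462 for the second, 1049 to 7464 and 530 to 5909 for the temperatures, 18290 to 23648 and 17047 to 24343 for the seed treatments and 1547 to 6551 for the tissues. Among 48 named gene and comparison pairs, 1149 of 1211 values kept direction and call, 60 lost the call and 2 reversed with the covariate: TraesCS5B03G1031900.1 in the floret for 24 h against 8 h (0.060, adjusted p = 0.69) and TraesCS2A03G0168200.1 in the rachis for the seed treatments (0.031, adjusted p = 0.99). The causes were not tested. Leaving out single libraries one group at a time, and the plants whose tissue labels ran against their expression, was added after seeing the data. Depth limits genes of low counts, and counting error is not separated from the spread between plants.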

Other observations

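For genes with more than 1 transcript entry, entries rarely took opposite directions. Of 265 such genes with at least 2 measured entries in the floret, 45 had all entries called in the same direction, 111 had none called and 2 had entries called in opposite directions. Of 301 in the rachis, these numbers were 67, 133 and 5. TraesCS1B03G1268300 was of the last kind in both tissues. In the floret its first entry went from a mean of 21.5 to 11.5 normalized counts between 8 and 24 h of heat (log2 change -0.91) and its second from 159.6 to 310.4 (0.95), and in the rachis the log2 changes were -0.82 and 0.66. Reads shared between entries of a gene can be split by the counting, so these entries are uncertain.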
